A study of Macaca fascicularis with 9 samples.

Results

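Neurons with low PDE10A are the nuclei that the authors named Neurons and in which PDE10A stood below 1000 CPM, that is, counts per 1000000 UMIs of the nucleus. PDE10A encodes a phosphodiesterase that is abundant in projection neurons of the striatum. The rule kept 1007 of 1714 neurons, out of 79994 nuclei in all, and each of them lies in cluster 11 of the authors' 17 clusters. Single nuclei came from frozen brain tissue labelled thalamus of 9 female cynomolgus monkeys, were sorted on DAPI and were captured on the 10x Genomics platform. The ASO group (3 animals) was given an antisense oligonucleotide (ASO) to MALAT1 intrathecally, at 4 mg and in 1 dose. The OTV group (3 animals) was given OTV:MALAT1 at 30 mpk by vein, biweekly, for 4 doses. The saline group (3 animals) was given saline by vein on that same schedule of 4 doses. In each group, 2 weeks passed between the last dose and collection of the brain. The ASO group therefore differs from saline in route and in number of doses as well as in the agent. Each replicate is 1 animal with 1 library, the age of the animals is not given in the labels, and replicate numbers here are only names.

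MALAT1 is an abundant nuclear noncoding RNA of neurons and many other cells, and an antisense oligonucleotide of the kind that recruits RNase H lowers its target RNA in that compartment. The oligonucleotide transport vehicle (OTV) binds the transferrin receptor, encoded by TFRC, which endothelial cells of brain vessels carry. In the thalamus of primates, relay neurons use glutamate loaded by the vesicular transporter SLC17A6 and carry TCF7L2 and LEF1, whereas local inhibitory neurons make GABA with the decarboxylases GAD1 and GAD2, and those that derive from the midbrain express OTX2, GATA3 and SOX14.

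The limit falls on a slope between a low and a high mode of PDE10A. The median was 219.7 CPM in the nuclei kept and 6426 CPM in the 707 nuclei left out, and 330 of the nuclei kept (32.8%) had no PDE10A UMI. The highest values inside the limit were 996.7, 985.4 and 983.4 CPM, and the lowest outside it were 1014, 1016 and 1019 CPM. Between 800 and 1000 CPM lay 58 nuclei, and between 1000 and 1200 CPM lay 36. These values made the choice and support nothing else.

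**Figure D1:**
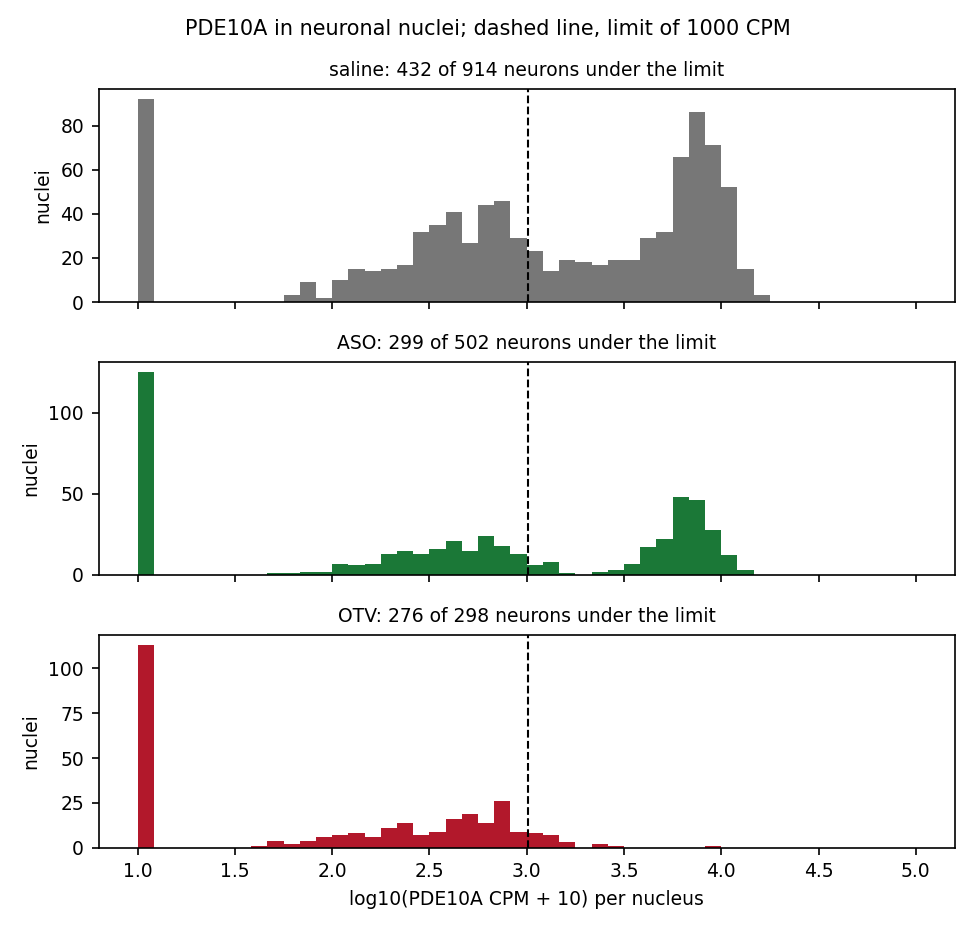
Histograms of PDE10A per neuronal nucleus, as log10(CPM + 10) on the horizontal axis and number of nuclei on the vertical axis, for saline, ASO and OTV animals from top to bottom. The dashed line is the limit of 1000 CPM, with 432 of 914 saline, 299 of 502 ASO and 276 of 298 OTV nuclei to its left.

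The number of low-PDE10A neurons differed widely between animals of 1 group. Saline animals gave 227, 20 and 185, ASO animals 17, 14 and 268, and OTV animals 90, 106 and 80. As a share of all neurons they were 62.4%, 87.0% and 35.1% in saline, 94.4%, 82.4% and 57.4% in ASO, and 91.8%, 94.6% and 90.9% in OTV. Saline replicates 1 and 3 and ASO replicate 3 were the animals that also held many neurons over the limit, with 137, 342 and 199, against 1 to 8 in the other 6 animals. The share follows from the rule and was not tested. Median depth ran from 4445 UMIs per nucleus in OTV replicate 1 to 14510 in ASO replicate 2, and summed depth from 139187 UMIs in ASO replicate 1 to 3022359 in saline replicate 1. ASO replicates 1 and 2 and saline replicate 2 thus rest on few nuclei. Every nucleus is called a singlet in the deposited table, the highest doublet score among the low-PDE10A neurons was 0.760, and 14 of them carry a barcode that also occurs in another library.

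Genes of GABA synthesis were found in many low-PDE10A neurons, and SLC17A6 in few. A UMI of GAD1, GAD2 or the vesicular GABA transporter SLC32A1 without a UMI of SLC17A6 or SLC17A8 was found in 766 of the 1007 nuclei (76.1%). By animal, this share was 91.6%, 65.0% and 90.8% in saline, 58.8%, 78.6% and 84.3% in ASO, and 35.6%, 48.1% and 58.8% in OTV. Only a glutamate transporter was found in 40 nuclei (3.97%), both kinds in 21 (2.09%) and neither in 180 (17.9%). The glutamate transporter SLC17A7 matched no feature name, so nuclei that express it could not be counted as glutamate nuclei by it. These counts take any UMI and grow with depth: after each nucleus was thinned to 1000 UMIs, 426 nuclei (42.3%) held only GABA genes, 11 (1.09%) only a glutamate transporter and 570 (56.6%) neither. Unthinned, GAD1 was detected in 734 nuclei, GAD2 in 641, SLC32A1 in 145, SLC17A6 in 56 and SLC17A8 in 8. A UMI of GAD1 was also found in 2.76% to 22.3% of the oligodendrocytes of an animal, which should lack it, against 34.4% to 86.5% of its low-PDE10A neurons. Among genes of other transmitters, the acetylcholine enzyme CHAT was detected in 15 nuclei, the glycine transporter SLC6A5 in 4 and tyrosine hydroxylase (TH) in 1. The relay marker SLC17A6 therefore does not describe these nuclei as a whole, although the tissue is labelled thalamus. The relay marker TCF7L2 was more widespread, with 1455 UMIs against 102 of SLC17A6 and 809 of LEF1. It was found in each sub-cluster described below, from 7 nuclei of sub-cluster 8 to 72 nuclei of sub-cluster 2.

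SLC17A6 gave 102 UMIs in all. Saline animals held 6, 22 and 1 of these UMIs, ASO animals 2, 0 and 0, and OTV animals 21, 47 and 3. Scaled to summed depth, they made 1.99, 78.3 and 0.62 CPM in saline, 14.4, 0 and 0 CPM in ASO, and 31.2, 32.5 and 5.39 CPM in OTV, so saline replicate 2 lay above each OTV animal. For OTV over saline edgeR's quasi-likelihood test gave a log2 fold change of 0.64 with an SE of 1.56 (adjusted p = 0.846), and the sign turned in 4 of 20 alternatives. Without saline replicate 2 it was 4.02 (adjusted p = 0.0709). After each nucleus was thinned to 1000 UMIs, a UMI of SLC17A6 remained in 0 of 227, 0 of 20 and 0 of 185 saline nuclei and in 0 of 17, 0 of 14 and 0 of 268 ASO nuclei. A count of 0 allows a share of up to 1.32% in saline replicate 1, 1.62% in saline replicate 3 and 1.12% in ASO replicate 3, but up to 15.0%, 17.6% and 21.4% in the 3 animals with few nuclei. That bound is for nuclei with a UMI at the thinned depth, not for nuclei that express the gene. In OTV animals the thinned share was 4.44%, 5.66% and 1.25%, on 4, 6 and 1 nuclei. In oligodendrocytes, which should lack the gene, it was 0 to 0.35% in saline and ASO and 0.61%, 0.25% and 1.10% in OTV, at median depths of 2558 to 7812 UMIs, so the value of OTV replicate 3 does not stand above background. Comparison of the 3 groups gave p = 0.0357 in an exact permutation test over the 280 divisions of the animals (two-sided), and p = 0.107 after adjustment over the 3 transmitter genes tested, which does not pass. Without thinning the shares were 1.32%, 15.0% and 0.54% in the saline group, then 5.88%, 0% and 0% with ASO, and 16.7%, 28.3% and 3.75% with OTV. At this depth a lower share in saline animals was not shown, since saline replicate 2 lay within the OTV range. The thinned counts also depended on the random draw of UMIs. Averaged over all possible draws, the share was 0.159%, 4.20% and 0.187% in saline, 0.921%, 0% and 0% in ASO, and 5.89%, 3.99% and 1.06% in OTV, with saline replicate 2 inside the OTV range (exact permutation p = 0.121, adjusted 0.193 over 3 groups). Thinned to 2000 UMIs, it averaged 3.63% in saline and 7.92% in OTV (exact permutation, adjusted p = 0.439).

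GAD1, an enzyme of GABA synthesis, lay lower in OTV animals without passing the test. Its thinned share was 24.2%, 25.0% and 38.9% of nuclei in saline, 29.4%, 14.3% and 38.4% in ASO, and 12.2%, 15.1% and 8.75% in OTV, against 3.14% to 4.47% of oligodendrocytes in saline and ASO animals and 0.91% to 1.26% in OTV animals. Each OTV animal was below each saline animal, and ASO replicate 2 lay inside the OTV range. Averaged over all possible draws of UMIs, the OTV animals, at 11.9%, 11.2% and 15.7%, lay below the 6 others, the lowest of which was ASO replicate 2 at 17.8% (exact permutation, adjusted p = 0.193). The test over 3 groups did not pass (exact permutation p = 0.143, adjusted 0.214), and neither did OTV against saline, where p = 0.1 is the smallest that 3 against 3 animals can give. GAD2 overlapped between all groups, at 27.8%, 5.00% and 30.8% in saline, 11.8%, 14.3% and 26.1% in ASO and 15.6%, 13.2% and 25.0% in OTV (exact permutation p = 0.882, adjusted 0.882). As summed levels, GAD1 was at 324.6, 299.0 and 582.3 CPM in saline and 282.4, 137.0 and 287.6 CPM in OTV. For OTV over saline, edgeR's quasi-likelihood test gave a log2 fold change of -0.74 with an SE of 0.44, and an adjusted p = 0.319. GAD1 was lower outside neurons too, without overlap, at a mean of 33.9 CPM in the oligodendrocytes of saline animals and 9.98 CPM in those of OTV animals, and at 77.9 and 14.2 CPM in astrocytes. The part of this signal in the neuronal values was not tested. Neither kind of transmitter gene was found in 47.8%, 21.7% and 37.5% of the nuclei of OTV animals, in 6.61%, 20.0% and 8.11% in saline and in 35.3%, 21.4% and 15.3% in ASO. After thinning it was 73.3%, 70.8% and 67.5% in OTV, 57.3%, 70.0% and 44.9% in saline, and 70.6%, 71.4% and 47.0% in ASO, so OTV overlapped both groups. Unthinned, 79 of the 180 such nuclei lay in 1 sub-cluster, described below as sub-cluster 0.

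Clustering of the low-PDE10A neurons gave 13 sub-clusters, numbered 0 to 12, and the animals filled them very unequally. A name ending in "-like" is used below only where at least 3 markers of a listed cell type were found in at least 20% of the nuclei at 2-fold or more over the rest and the leading genes did not go against it. Sub-clusters were defined by these genes, so their levels are a description with no test. PDE10A, MALAT1, GAD1 and GAD2 were not among the 2000 genes used for the clustering.

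**Figure D2:**
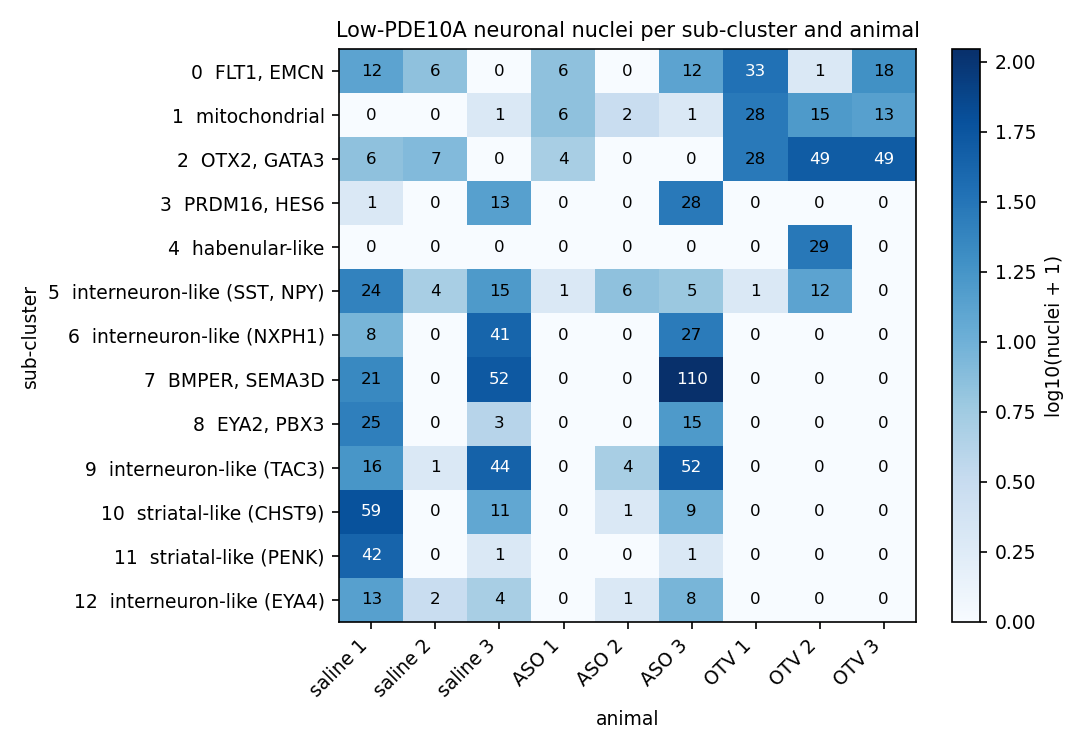
Number of low-PDE10A neuronal nuclei in each sub-cluster (rows, with leading genes or name) and animal (columns); the colour is log10(nuclei + 1). Sub-clusters 3 and 6 to 12 held 185, 3 and 169 nuclei of the saline animals and 0, 6 and 250 of the ASO animals, and none of the 276 nuclei of the OTV animals.

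Sub-cluster 2, of 143 nuclei, was led by OTX2, a transcription factor of the midbrain and thalamus, at 244 CPM in 82.5% of its nuclei, against 20.3 CPM in sub-cluster 1 and under 1 CPM in the other 11 sub-clusters. GATA3, which acts with OTX2 in midbrain-derived GABA neurons, was at 82.1 CPM in 56.6% of the nuclei, and the related selector SOX14 was at 5.23 CPM in 5.59%. GAD2 was found in 94.4% of these nuclei and GAD1 in 88.8%, at 501 and 332 CPM. BMPR1B, a receptor for bone morphogenetic proteins, was also among the leading genes, at 612 CPM. The relay markers LEF1 (144 CPM, 73.4% of nuclei), NTNG1 (272 CPM, 82.5%) and RORA met the marker limits too, but 131 of the 143 nuclei carried only GABA genes, so no relay name is given. OTV animals held 28, 49 and 49 of these nuclei, saline animals 6, 7 and 0, and ASO animals 4, 0 and 0. No nucleus of it was found in saline replicate 3 or in ASO replicates 2 and 3.

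SLC17A6 nuclei were spread over a few places. Sub-cluster 4 was made of 29 nuclei of OTV replicate 2 alone and met the limits for the habenula, a small structure beside the thalamus, through GPR151, CHRNB4, CHRNA3 and NR4A2. In it SLC17A6 was found in 58.6% of nuclei at 54.0 CPM, TCF7L2 in 100% at 1129 CPM, CHRNA3, a nicotinic receptor subunit, at 149 CPM, and GPR151, a receptor typical of the habenula, at 23.8 CPM. CHAT was found in 44.8% of its nuclei at 90.7 CPM, and GAD2 in none. This habenular neuron-like group rests on 1 library, so it cannot be told apart from a property of that library. Sub-cluster 1, of 66 nuclei with the lowest median depth (2298.5 UMIs), held 17 of the 56 nuclei with SLC17A6, at 101 CPM, together with NTNG1 at 782 CPM and SHOX2, a thalamic transcription factor, at 48.6 CPM. Of its 10 leading genes 7 were mitochondrial, COX3 among them at 3913 CPM, and 6 of the oligodendrocyte markers, such as MOG, a myelin surface protein, at 385 CPM, met the marker limits, as did the relay genes SLC17A6, TCF7L2 and NTNG1. It came mainly from OTV animals (28, 15 and 13 nuclei), with 9 nuclei from ASO and 1 from saline.

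Sub-cluster 5, of 68 nuclei, met the limits for telencephalic interneurons through LHX6, SST, NPY, SOX6 and RELN, but was mixed. SST, a neuropeptide of inhibitory interneurons, was at 840 CPM in 36.8% of nuclei, NPY at 273 CPM in 29.4% and NOS1, the neuronal nitric oxide synthase, at 882 CPM in 42.6%. A UMI of at least 1 of these genes was found in 36 nuclei and of SLC17A6 in 13, with 3 nuclei in both sets. It was the sub-cluster found in the largest number of animals, 8 of 9, with 43 nuclei from saline, 12 from ASO and 13 from OTV.

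Most LEF1 UMIs lay in nuclei with vessel genes and not in nuclei with SLC17A6. Of the 809 UMIs of LEF1, 57.6% lay in the 88 nuclei of sub-cluster 0, 34.1% in sub-cluster 2 and 4.57% in sub-cluster 4. Sub-cluster 0 was led by genes of endothelium, the inner lining of vessels: FLT1, a receptor for vascular growth factors, at 2830 CPM in 98.9% of nuclei, EMCN at 1836 CPM in 95.5%, ADGRL4 at 1836 CPM in 90.9% and ERG at 1186 CPM in 84.1%. Of the fixed vascular list 3 of 5 genes were among the features and 2 met the limits (FLT1 and VWF), so the sub-cluster keeps no name. Neuronal genes were low in it, with SNAP25 at 28.5 CPM and SYT1 at 39.9 CPM, against 650 and 3438 CPM in sub-cluster 2, and 79 of the 88 nuclei held no transmitter gene. TFRC was at 792 CPM in 88.6% of its nuclei, against 12.3 to 48.6 CPM in the other 12 sub-clusters. These nuclei came from OTV animals (33, 1 and 18), ASO animals (6, 0 and 12) and saline animals (12, 6 and 0). The authors' class of neurons therefore includes nuclei led by endothelial genes, and they form 36.7% of the low-PDE10A neurons of OTV replicate 1, 35.3% of those of ASO replicate 1, 30.0% of those of saline replicate 2 and 22.5% of those of OTV replicate 3.

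Sub-clusters 6 and 9 to 12 carried genes of the telencephalon, the part of the forebrain that holds cortex and striatum. Sub-clusters 6, 9 and 12 were telencephalic interneuron-like. In sub-cluster 6 the neurexin ligand NXPH1 was at 4276 CPM and LHX6, a transcription factor of interneurons from the medial ganglionic eminence, at 267 CPM. Sub-cluster 9 was led by the tachykinin TAC3 (206 CPM, 77.8% of nuclei), with LHX6 at 291 CPM, NKX2-1 at 27.7 CPM and LHX8 at 41.9 CPM, a set known from an interneuron type of the primate striatum. SYT1, a synaptic vesicle protein of most neurons, was at only 38.1 CPM in sub-cluster 9, while RBFOX3, a splicing factor of mature neurons, was at 692 CPM. Sub-cluster 12 carried LAMP5, NXPH1 and CCK and was led by EYA4 at 1233 CPM.

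Sub-clusters 10 and 11 were striatal projection neuron-like although their PDE10A was low. Sub-cluster 11 held PENK, the precursor of enkephalin, at 225 CPM in 68.2% of nuclei, with RGS9, RARB, ADCY5 and PDE1B, and 42 of its 44 nuclei came from saline replicate 1. Sub-cluster 10, of 80 nuclei, held PENK at 80.1 CPM, PDYN at 25.6 CPM and RGS9 at 215 CPM, and was led by CHST9 and the relaxin receptor RXFP1. The dopamine receptors were low in both: DRD1 was at 4.26 CPM in sub-cluster 10 and 0 in sub-cluster 11, and DRD2 was at 0.85 and 17.2 CPM. Their median PDE10A was 281.0 and 464.9 CPM.

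Sub-clusters 3, 7 and 8 stay unnamed and were high in DCX, a microtubule protein of young and migrating neurons, with DLX6 and MEIS2, transcription factors of forebrain inhibitory neurons. DCX was at 976 CPM in sub-cluster 7, 651 CPM in sub-cluster 8 and 355 CPM in sub-cluster 3, against 182 CPM or less elsewhere. MEIS2 was at 1741, 4685 and 1348 CPM in the same order, but also at 2320 CPM in sub-cluster 10. Sub-cluster 3 was led by PRDM16 and also held the Notch genes HES6 and DLL3 and the glial transporter SLC1A3 (536 CPM, 59.5% of nuclei), and the proliferation gene MKI67 was found in 9.52% of its nuclei. The astrocyte markers AQP4, SLC1A2 and SLC1A3 met the marker limits in it. No astrocyte name is given, since only 1 of them was among the leading genes. Of its 42 nuclei, 22 held only GABA genes and 19 neither kind of transmitter gene. The list with DCX, the DLX genes and MKI67 was drawn up after these data were seen. Sub-cluster 7 was the largest, with 183 nuclei, and 110 of them came from ASO replicate 3, 52 from saline replicate 3 and 21 from saline replicate 1. All 268 nuclei of sub-clusters 3, 7 and 8 came from these 3 animals.

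**Figure D3:**
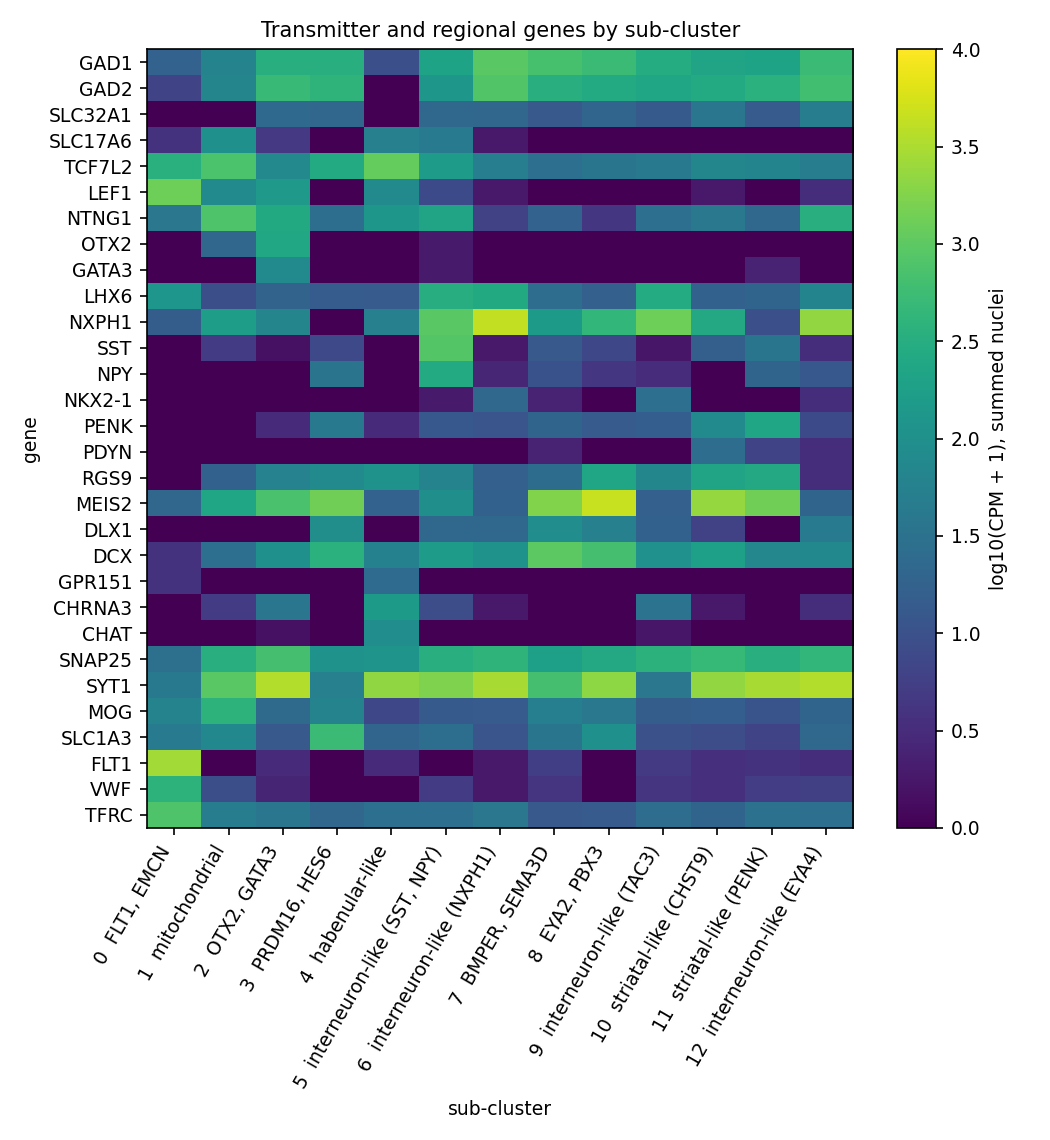
Levels of transmitter, regional and other cell type genes (rows) in the 13 sub-clusters (columns), as log10(CPM + 1) of the summed nuclei. SLC17A6 is highest in sub-clusters 1, 4 and 5, OTX2 and GATA3 in sub-cluster 2, LEF1, FLT1 and TFRC in sub-cluster 0, and NXPH1 in sub-clusters 6 and 12.

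Sums over the marker lists also differed between whole animals. Summed over the 11 telencephalic interneuron genes among the features, the level was 1356, 1253 and 4069 CPM in saline, 747, 3989 and 2281 CPM in ASO, and 446, 559 and 376 CPM in OTV, which lay below all 6 others. The 7 cortical excitatory genes, also of the telencephalon, ran the other way. They summed to 396, 370 and 519 CPM in saline and 546, 366 and 389 CPM in ASO. In OTV they summed to 859, 1030 and 924 CPM. CUX2 alone gave most of this sum in OTV, with 694, 813 and 775 CPM. It was at 239, 214 and 427 CPM in saline and 338, 158 and 329 CPM in ASO. The 11 striatal projection neuron genes overlapped, at 600, 157 and 334 CPM in saline and 141, 218 and 169 CPM in OTV. Summed over the 10 relay genes, which include RORA, the level was 2267, 3794 and 1691 CPM in saline, 3485, 1485 and 1842 CPM in ASO, and 5924, 4668 and 5728 CPM in OTV, above all others. RORA, a nuclear receptor, gave most of the relay sum in OTV, with 4591, 3155 and 4688 CPM. It was at 1265, 2456 and 1401 CPM in saline and 2313, 1069 and 1073 CPM in ASO. RORA is not confined to relay neurons, and in astrocytes it averaged 5032 CPM in saline and 6424 CPM in OTV. No sub-cluster was named as relay neurons, although sub-clusters 1 and 2 each met the marker limits with 3 relay genes. The sum is a level and not a count of nuclei, and whether OTV animals held more relay neurons was not tested. Telencephalic interneuron-like and striatal projection neuron-like nuclei made up 71.4%, 35.0% and 62.7% of the low-PDE10A neurons in saline, 5.88%, 85.7% and 38.1% in ASO, and 1.11%, 11.3% and 0% in OTV. These shares count the mixed sub-cluster 5, to which all 12 such nuclei of OTV replicate 2 belong, 6 of them with SLC17A6 and 3 with SST, NPY or NOS1. Without it they were 60.8%, 15.0% and 54.6% in saline, 0%, 42.9% and 36.2% in ASO, and 0% in each OTV animal. All libraries are labelled thalamus, and whether they were taken from the same part of it was not tested. In the comparisons of groups below, treatment and this mix of nuclei cannot be told apart, nor can fewer nuclei of a kind and less RNA per nucleus in the summed levels.

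Low-PDE10A neurons were set beside the neurons over the limit in the 3 animals with at least 10 of both. That contrast is the rule's own, so no test was made. NXPH1 was higher under the limit in each, at 643, 2574 and 1366 CPM against 16.8, 44.6 and 29.7 CPM in saline replicates 1 and 3 and ASO replicate 3. LHX6 was at 80.4, 271 and 187 CPM under the limit against 16.8, 20.2 and 20.6 CPM over it. GAD1 was at 325, 582 and 527 CPM against 176, 164 and 178 CPM, whereas GAD2 was closer, at 352, 452 and 387 CPM against 359, 265 and 320 CPM. Striatal genes ran the other way: RGS9, a regulator of G protein signalling in striatal neurons, was at 151, 35.6 and 78.9 CPM under the limit against 483, 803 and 791 CPM over it, and DRD2 at 4.63, 2.499 and 7.08 CPM against 23.8, 40.3 and 44.1 CPM. SLC17A6 was under 2 CPM on both sides in these animals. MALAT1 was lower under the limit in each, at 4.99%, 4.85% and 5.43% of UMIs against 7.12%, 6.56% and 9.03%.

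MALAT1, the target of both agents, made up a smaller part of the UMIs in low-PDE10A neurons of OTV animals. It was 4.99%, 4.92% and 4.85% in saline, 3.96%, 3.20% and 5.43% in ASO, and 2.83%, 2.19% and 2.55% in OTV. The means were 4.92% ± 0.07 in saline, 4.20% ± 1.13 in ASO and 2.52% ± 0.32 in OTV (SD, n = 3 each). All OTV animals lay below the 6 others, while ASO replicate 3 lay above all saline animals. The 3 groups differed (exact permutation p = 0.0179, two-sided). OTV against saline and OTV against ASO each gave p = 0.1, the smallest that 3 against 3 animals allow, and ASO against saline gave p = 0.4, all exact permutation tests. The p over 3 groups rose to 0.082 when the percentage was averaged over nuclei, and to between 0.050 and 0.057 without saline replicate 1 or 2 or any 1 OTV animal. In edgeR's test across all genes MALAT1 was not called, where OTV less saline came to -0.92 on the log2 scale (SE 0.41, adjusted p = 0.192) and ASO less saline to -0.31 (SE 0.41, adjusted p = 0.999). Over the alternatives, the former adjusted p ran from 0.00558 with DESeq2's Wald test, the only 1 of 21 that called it, to 0.404.

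MALAT1 also differed between sub-clusters of the same animal. In sub-cluster 7, which OTV animals lack, it was 8.31% and 7.33% in saline replicates 1 and 3 and 8.05% in ASO replicate 3, above the value over all low-PDE10A neurons of each of these animals. Within sub-cluster 2, the GABA neurons with OTX2, MALAT1 was 4.53% and 4.48% in saline replicates 1 and 2 (6 and 7 nuclei), 2.30% in ASO replicate 1 (4 nuclei), and 2.07%, 1.75% and 2.26% in OTV (28, 49 and 49 nuclei). The mean was 4.50% ± 0.04 (SD, n = 2) in saline and 2.03% ± 0.25 (SD, n = 3) in OTV, and the groups did not overlap. In sub-cluster 5 it was 4.02%, 5.14% and 4.87% in saline, 3.18% in ASO replicate 2, 3.98% in ASO replicate 3 and 2.70% in OTV replicate 2 (4 to 24 nuclei each). In sub-cluster 0, with the endothelial genes and high TFRC, it was 6.31% and 5.36% in saline replicates 1 and 2, 7.68% (ASO replicate 1) and 5.81% (ASO replicate 3), then 4.37% (OTV replicate 1) and 5.38% (OTV replicate 3), where saline and OTV overlapped. TFRC itself was at 765 and 532 CPM in those saline animals and 814 and 741 CPM in those OTV animals. These sub-clusters were chosen after their values were seen, so none of these differences was tested.

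**Figure D4:**
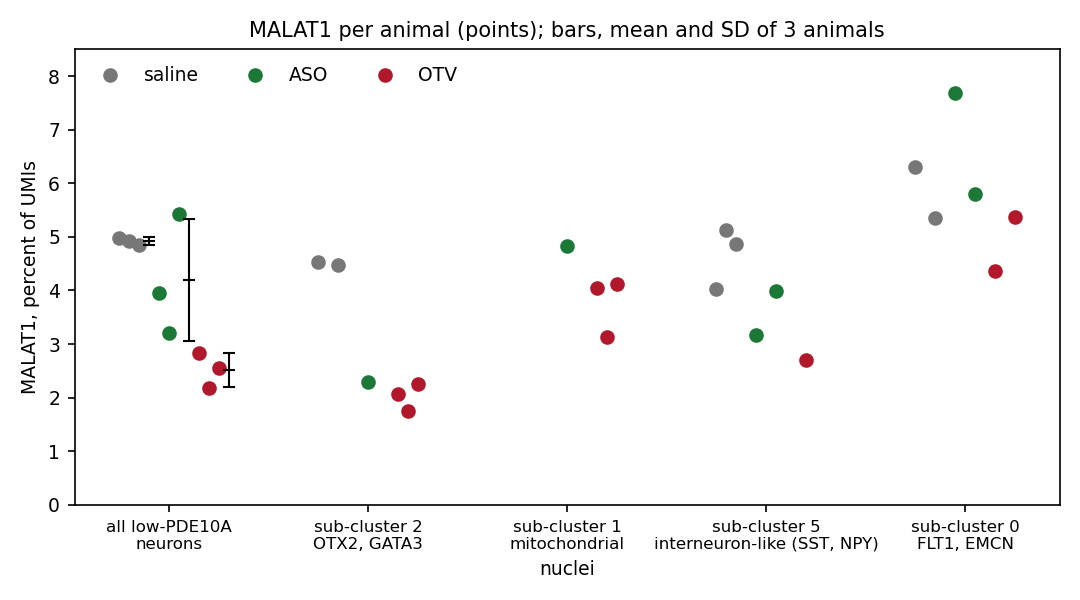
MALAT1 as percent of UMIs in all low-PDE10A neurons and in 4 sub-clusters; each point is 1 animal with at least 4 nuclei, and bars give mean and SD of 3 animals. In sub-cluster 2 the OTV points lie between 1.75% and 2.26%, below both saline points at 4.48% and 4.53%.

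Across all genes, OTV animals differed from saline in many and ASO animals in 1. Counts were summed per animal and 9091 genes passed the filter on low counts. For OTV against saline edgeR called 313 genes higher (3.44%) and 373 lower (4.1%) at an adjusted p under 0.05, together 7.55% of the genes tested, and in 7.49% the animals of the groups also did not overlap. For OTV against ASO it called 315 higher (3.46%) and 327 lower (3.6%), together 7.06%, and 6.85% did not overlap. For ASO against saline it called 1 gene (0.011%), with 295 (3.24%) at an unadjusted p under 0.05 against 25.6% in each of the others, and DESeq2's Wald test called 12. The OTV count against saline fell to 47 without saline replicate 1, 127 without OTV replicate 3, 284 without saline replicate 3 and 416 without OTV replicate 1, and the count against ASO fell to 44 without ASO replicate 3, 108 without OTV replicate 3, 333 without ASO replicate 2 and 353 without saline replicate 1. Without sub-clusters 0 and 1 the counts were 898 and 763 with all animals in the fit. They were 1336 and 1153 when ASO replicate 1, left with 5 nuclei, was dropped as well, and dropping that animal alone gave 958 and 724. The 2 comparisons share the OTV animals, so their calls are not independent.

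Among the genes called lower in OTV than in saline with the smallest adjusted p were ACADS and BTD, which encode enzymes of fatty acid breakdown and biotin recycling, and the secreted protein FGL1. ACADS was at 236, 167 and 232 CPM in saline, 194, 178 and 296 CPM in ASO and 8.92, 21.4 and 16.2 CPM in OTV (log2 fold change -3.68 against saline, SE 0.36, adjusted p = 0.00184). BTD was at 129, 92.5 and 101 CPM in saline and 14.9, 14.5 and 12.6 CPM in OTV. FGL1 was at 153, 167 and 147 CPM in saline and 10.4, 22.8 and 10.8 CPM in OTV. The ion exchanger SLC24A5 was at 70.1, 53.4 and 54.4 CPM in saline and 4.46, 8.30 and 5.39 CPM in OTV. LRTM1, a membrane protein with leucine-rich repeats, was at 40.7, 28.5 and 30.0 CPM in saline and 1.49, 2.77 and 3.59 CPM in OTV. These 5 genes were also lower, without overlap, in the oligodendrocytes of the same OTV animals: ACADS averaged 284 CPM in saline and 47.6 in OTV, BTD 220 and 54.0, FGL1 130 and 21.8, SLC24A5 22.0 and 2.59, and LRTM1 0.594 and 0.0901. In astrocytes 4 of them were lower without overlap, and SLC24A5 overlapped. Their difference between animals was therefore not confined to neurons. The share of all genes without overlap in these glia was not determined, so the counts are a description only.

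The other 3 genes chosen in that direction were ADCY2, an adenylyl cyclase, DAB1, an adaptor of reelin signalling, and the mitochondrial deubiquitinase USP30. DAB1 was at 330, 384 and 385 CPM in saline, 172, 213 and 336 CPM in ASO and 55.0, 81.0 and 79.1 CPM in OTV. USP30 was at 99.6, 89.0 and 85.6 CPM in saline, 108, 89.1 and 98.7 CPM in ASO and 28.2, 31.1 and 25.2 CPM in OTV (log2 fold change -1.64, SE 0.21, adjusted p = 0.0052). In oligodendrocytes USP30 averaged 78.5 CPM in saline and 80.5 CPM in OTV, and DAB1 13.6 and 12.1 CPM. ADCY2 was at 417, 210 and 247 CPM in saline and 25.3, 26.3 and 7.19 CPM in OTV.

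Genes called higher in OTV were led by GRIP2, a scaffold for AMPA-type glutamate receptors, at 136, 182 and 140 CPM in saline, 101, 94.0 and 88.6 CPM in ASO and 562, 781 and 802 CPM in OTV (log2 fold change 2.29, SE 0.24, adjusted p = 0.00206). DTX2, a ubiquitin ligase of Notch signalling, was at 14.2, 24.9 and 8.75 CPM in saline and 104, 94.1 and 111 CPM in OTV. LGR5, a receptor for R-spondins, was at 2.65, 3.56 and 2.499 CPM in saline and 69.9, 60.2 and 19.8 CPM in OTV. GALNT9, SYT7, ADGRB1, CACNA2D2, a calcium channel subunit, and the splicing factor RBM25 complete the 8 genes, and the log2 fold changes of all 8 lay between 1.84 and 4.22. In oligodendrocytes 2 of the 8 were higher in OTV without overlap, each by under 2-fold, DTX2 at means of 12.6 and 20.4 CPM and RBM25 at 154 and 272 CPM, and GRIP2 averaged 1.16 CPM in saline and 2.62 CPM in OTV. In astrocytes 5 of the 8 were higher without overlap, DTX2 at 11.01 and 21.9 CPM and 4 others by over 2-fold: GRIP2 averaged 6.80 CPM in saline and 17.9 CPM in OTV, CACNA2D2 7.63 and 26.5, LGR5 10.1 and 21.6, and RBM25 171 and 375. For these counts too, the share of all genes without overlap in glia was not determined.

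**Figure D5:**
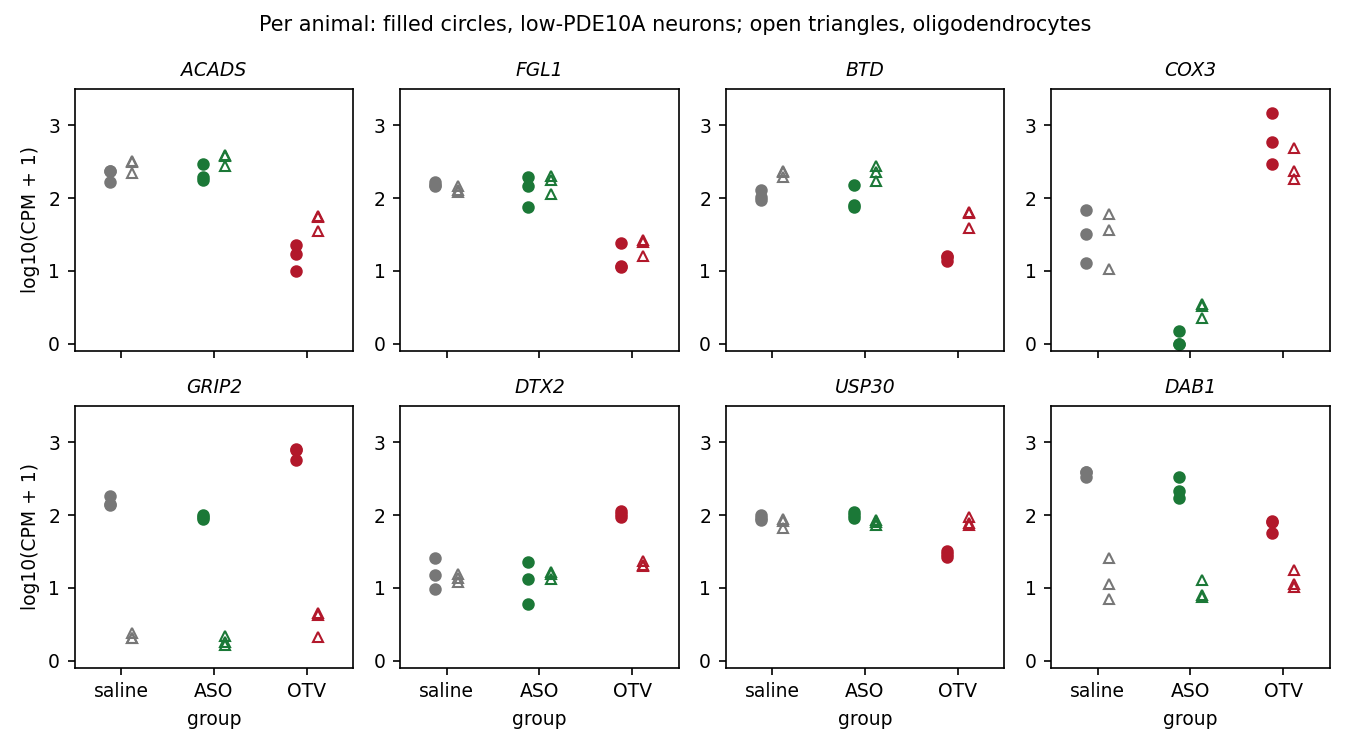
Levels of 8 genes per animal, as log10(CPM + 1), in low-PDE10A neurons (filled circles) and oligodendrocytes (open triangles), by group. ACADS, FGL1 and BTD are lower in both kinds of nuclei in OTV animals and COX3 is higher in both, while USP30, at 25.2 to 31.1 CPM in OTV neurons, averages 80.5 CPM in OTV oligodendrocytes.

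Against ASO, OTV animals were lower in the same ACADS, BTD, FGL1, SLC24A5, LRTM1 and USP30, and also in FSD2 and the sarcoglycan SGCB. SGCB was at 86.2, 69.3 and 85.0 CPM in ASO, 23.5, 35.6 and 32.5 CPM in saline and 17.8, 18.0 and 14.4 CPM in OTV. It averaged 65.5 CPM in oligodendrocytes of ASO animals, 29.2 in saline and 17.7 in OTV. Higher in OTV were GRIP2, DTX2, TMEM120B, FAM53B, the secretory granule protein PTPRN, the potassium channel KCNJ6 and the mitochondrial genes COX1 and COX3. COX3 was at 0, 0 and 0.51 CPM in ASO, 31.4, 67.6 and 11.9 CPM in saline and 1468, 293 and 581 CPM in OTV. In oligodendrocytes COX3 averaged 2.02 CPM in ASO, 34.7 in saline and 303 in OTV, so the order of the groups was the same in both kinds of nuclei. KCNJ6 was at 172, 183 and 104 CPM in ASO and 599, 576 and 800 CPM in OTV. It was also higher without overlap in glia, at means of 0.96 CPM in ASO and 3.57 CPM in OTV in oligodendrocytes, and 0.80 and 3.74 CPM in astrocytes. Of the 8 higher genes, 6 were higher without overlap in oligodendrocytes and 7 in astrocytes. Of the 8 lower genes, 6 and 7 were lower in the same way. The share of all genes without overlap in glia was not determined.

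The 1 gene called between ASO and saline was ENSMFAG00000046424, which the files do not pair with a symbol. It gave 35.9, 84.1 and 54.7 CPM in ASO, 0.66, 0 and 0 CPM in saline and 4.46, 1.38 and 5.39 CPM in OTV (adjusted p = 0.0291). It was called in 13 of 20 alternatives. In oligodendrocytes it averaged 105.7 CPM in ASO animals and 0.33 CPM in saline.

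Genes of neuronal signalling were read from the fixed lists. Of 21 glutamate receptor genes tested, 4 were higher in OTV than in saline and none lower, with a median log2 fold change of -0.12, beside 3.44% of all genes higher, 4.1% lower and a median of 0.02 over all genes. GRM4, a presynaptic metabotropic receptor, was at 31.1, 42.7 and 16.9 CPM in saline and 122, 132 and 153 CPM in OTV (log2 fold change 2.31, SE 0.38, adjusted p = 0.0108). The delta receptor GRID1 was at 434, 562 and 274 CPM in saline and 855, 1107 and 1303 CPM in OTV. In oligodendrocytes GRID1 averaged 509 and 578 CPM in these groups. The obligatory NMDA subunit GRIN1 (adjusted p = 0.0472) and the kainate subunit GRIK4 (adjusted p = 0.0482) passed narrowly, and were called in 8 and 9 of 21 alternatives. Against ASO, GRM4, GRID1 and GRIN1 were higher in OTV.

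Of 13 GABA receptor genes, none was higher in OTV than in saline and 2 were lower, with a median log2 fold change of -0.83, beside the same 3.44%, 4.1% and 0.02 over all genes. Of these, the alpha subunit GABRA4 was at 71.8, 39.2 and 49.4 CPM in saline, 0, 59.4 and 29.4 CPM in ASO and 5.95, 8.99 and 3.59 CPM in OTV (log2 fold change -2.99, SE 0.64, adjusted p = 0.0241), and each OTV animal was below each saline animal. GABBR2, a subunit of the metabotropic GABA receptor, was higher in OTV than in ASO (adjusted p = 0.0469) and was called in 8 of 21 alternatives.

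Of 7 channel genes that shape burst firing, 2 were higher and 1 lower in OTV than in saline, with a median of 0.21, beside 3.44%, 4.1% and 0.02 over all genes. The T-type calcium channel CACNA1I was at 32.4, 28.5 and 8.75 CPM in saline and 77.3, 87.9 and 133 CPM in OTV (adjusted p = 0.022). The pacemaker channel HCN4 was at 4.63, 7.12 and 1.25 CPM in saline and 22.3, 27.7 and 19.8 CPM in OTV. KCNC2, a potassium channel of fast-spiking interneurons, was at 649, 715 and 824 CPM in saline, 172, 896 and 663 CPM in ASO and 96.6, 199 and 55.7 CPM in OTV. HCN4 was called in 14 of 19 alternatives and KCNC2 in 12 of 21, with 3 of 9 when 1 animal was left out. All 3 groups of signalling genes were read in animals whose sub-clusters differ as given above, and the part of the mix in these calls was not tested gene by gene.

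Regional genes mostly missed the threshold. None of the 6 relay genes tested was called between OTV and saline, with all 6 above 0 and a median log2 fold change of 1.05, beside 3.44% of all genes higher, 4.1% lower and a median of 0.02, and RORA alone was called against ASO (log2 fold change 1.62, SE 0.42, adjusted p = 0.0454), in 9 of 21 alternatives. None of the 6 telencephalic interneuron genes was called against saline, with 5 of 6 below 0 and a median of -3.49, beside the same values over all genes. With so few genes tested, a count of 0 is near those shares. NXPH1 was at 643, 527 and 2574 CPM in saline and 52.0, 125 and 34.2 CPM in OTV (adjusted p = 0.060). OTX2 was not called at 13.9, 99.7 and 0 CPM in saline against 163, 136 and 140 CPM in OTV. None of the 8 tested genes of its list, thalamic and midbrain-derived GABA neurons, was called against saline. Of these, 4 lay above 0, with a median of -0.03, beside the same values over all genes. Summed over the 11 genes of that list, the groups overlapped, at 2172, 1107 and 1640 CPM in saline and 1534, 985 and 1619 CPM in OTV. TAC3 was lower in OTV than in saline (28.5, 14.2 and 43.1 CPM against 0, 1.38 and 0 CPM, adjusted p = 0.027), and so was PENK, at 83.0, 0 and 26.9 CPM against 0, 1.38 and 0 CPM (adjusted p = 0.0384), although saline replicate 2 overlapped the OTV animals. The call of TAC3 was made in 14 of 20 alternatives and that of PENK in 10 of 19. CHRNA3 and CUX2, a transcription factor of upper cortical layers, were higher, CUX2 at 239, 214 and 427 CPM in saline and 694, 813 and 775 CPM in OTV. CHRNA3 and TAC3 are the 2 habenular genes tested, and they went opposite ways (log2 fold change 2.84 and -5.18). CUX2 was the 1 called of 4 cortical excitatory genes, of which 3 lay above 0 and CAMK2A was at -1.38. PENK was the 1 called of 5 striatal genes, with 0 above 0. The shares over all genes are the 3.44% and 4.1% given above. CUX2 was called in 14 of 21 alternatives, and in 3 of 9 when 1 animal was left out. In oligodendrocytes PENK was at 7.67, 0.0463 and 37.9 CPM in saline and 0.0204, 0.122 and 0 CPM in OTV, where saline replicate 2 again overlapped the OTV animals.

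Markers of other cell types moved between animals as well. Summed over 7 oligodendrocyte genes, the level in low-PDE10A neurons was 384, 356 and 634 CPM in saline, 1818, 1212 and 1144 CPM in ASO and 895, 298 and 419 CPM in OTV. Summed over 3 vascular genes, it was 56.2, 260 and 9.37 CPM in saline, 711, 9.90 and 123 CPM in ASO and 752, 11.1 and 142 CPM in OTV. No gene of these lists was called in any comparison. Over the thinned nuclei, the genes that varied most like SLC17A6 were COX3, NWD2, KCNMA1, DPP6 and TCF7L2, with Pearson's r from 0.18 to 0.26 over 1007 nuclei, of which 11 held SLC17A6. NWD2 and TCF7L2 are among the genes high in sub-cluster 4 and COX3 is among the leading genes of sub-cluster 1, and values this weak in sparse counts are a description only.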

How the data were processed

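Single-nucleus 10x Genomics libraries of 9 animals, 3 per group, were analysed from the deposited matrix. The authors deposited raw UMI counts per feature and nucleus (29128 features, 14893 with a symbol) and a table with cell type, cluster, a doublet score and the percent of ribosomal UMIs of each nucleus. The percent values the authors deposited were not used here. The submitters' processing notes name Cell Ranger 6.1.2, Seurat 4 and GRCh38.p13, with no roles; the unnamed features carry cynomolgus identifiers. No source used here names the program behind the doublet score, and none was run. The smallest deposited nucleus holds 1018 UMIs.

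The members, the gene lists and the tests were chosen with earlier results of these data known. From the counts, CPM were computed as a gene's UMIs per 1000000 UMIs of the nucleus or of the summed nuclei. Counts were summed per animal (at least 10 nuclei) and tested with edgeR 4.0.16 (filterByExpr, TMM, robust quasi-likelihood fit over all 9 animals, Benjamini-Hochberg adjustment), and with DESeq2 1.42.0 as an alternative; the script was tested on simulated counts. Single values were compared by exact permutation over animals. Shares of nuclei were thinned to 1000 UMIs. Nuclei were clustered in scanpy 1.11.5 (2000 variable genes, 20 principal components, 15 neighbours, Leiden resolution 0.5); folds between sub-clusters used a pseudocount of 5 CPM. Intervals and limits for counts of 0 cover counting error only.

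Genes named in a comparison are MALAT1, the transmitter genes, up to 8 called genes in each direction with a symbol and without overlap of animals by adjusted p, and called genes of the lists, up to 6 per list. List genes that matched no feature name, SLC17A7 among them, are not analysed here, and a few named results are not reported here. No reference genome was used.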

Additional observations from a re-analysis of the deposited data

How the results depend on the processing

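ASO called 1 gene against saline, but 12 with DESeq2's Wald test and 0 with PDE10A under 500 CPM or with nuclei thinned to 1000 UMIs (leave-one-out 0 to 1). At least 20 nuclei per animal left ASO replicate 3 as the only ASO animal, so the count of ASO against saline is not given for that setting. The count of OTV against ASO listed below for it rests on that 1 ASO animal. It gives no spread within the ASO group, and no conclusion is drawn from it. Beside 686 genes called between OTV and saline, thinning gave 49 with fewer genes tested (2682), of which 42 are among the 686, removing sub-clusters 0 and 1 together with ASO replicate 1 gave 1336 (898 with that animal kept), and leaving out 1 animal gave 47 to 958. Beside 642 genes called between OTV and ASO, the counts were 254 with only these groups fitted, 288 with at least 20 nuclei per animal, 391 under 500 CPM, 50 when thinned, 1153 without sub-clusters 0 and 1 and ASO replicate 1 (763 with it kept), and 44 to 724 with 1 animal left out. What made these counts differ was not tested. The MALAT1 test over 3 groups gave exact permutation p = 0.0821 as a mean over nuclei and 0.00357 to 0.0571 with 1 animal left out. OTV and saline changed order for SLC17A6 with PDE10A under 2000 CPM and a second thinning draw (exact permutation, adjusted p = 0.536), but not under that limit with the first draw (0.107). They also did for GAD2 without sub-cluster 0 (adjusted p = 0.907) or sub-clusters 0 and 1 (0.668) and without saline replicate 1 or 3, with exact permutation p from 0.221 to 0.993 over the animals left out. MALAT1 in ASO against saline turned to a log2 fold change of 0.0742 with at least 20 nuclei per animal, where ASO replicate 3 alone stood for its group. The SLC17A6 log2 fold change of OTV against saline turned to -0.14 with DESeq2's Wald test and -0.0030 without sub-clusters 0 and 1, and ran from -0.35 to 4.02 with 1 animal left out (-0.31 without saline replicate 3). For the called genes named, MALAT1, and SLC17A6 and GAD1 in OTV against saline, 430 leave-one-out values kept direction and call, 108 lost the call and 2 turned. Of the other alternatives 636 kept both, 45 lost the call, 1 gained it and 3 turned. Among the 636 are 60 from the setting with all animals that hold a member nucleus. Since each animal held at least 10, that setting repeats the main fit, and it is also counted among the alternatives given for each gene. The 12 fold changes of 4 transmitter genes, none called, turned in 22 of 244 alternative values. Alternatives without sub-clusters and with other thinning draws were added after the data were seen. A separate fit of nuclei with SLC17A6 and no GABA gene was not run, since only OTV replicates 1 and 2 held at least 10. No paired analysis was possible because replicate numbers only name the animals. The number of nuclei limits the SLC17A6 shares of the 3 animals with 14 to 20 nuclei.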
